A study of Mus musculus with 123 samples.

Results

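Sap30 and the other genes of the Sin3-HDAC corepressor complex were examined in single mouse embryos that had lost the transcription factor Oct4 (gene symbol Pou5f1) or Sox2. The set was named by a list of 10 genes: Sap30, Sin3a, Sin3b, Hdac1, Hdac2, Sap18, Ing1, Ing2, Suds3 and Brms1. It was picked because Sap30 RNA is lower in Oct4-KO morulae, so the members were chosen by that measured fold change, and the contrast is given here as a description without a test for every gene of the set. Of the 10 genes, 9 were found among the 29022 genes of the deposited table, and Brms1 was not analysed here. All 9 passed the filter on detection, which left 14053 genes over the Ctrl and KO embryos.

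The Sin3 complex is a corepressor: it does not bind a DNA sequence by itself and is brought to chromatin by DNA-binding factors and other partners. Sin3a and Sin3b are alternative scaffolds, Hdac1 and Hdac2 are the catalytic subunits that remove acetyl groups from histones, and Sap30, Sap18 and Suds3 are associated subunits that help to assemble or stabilize the complex. Ing1 and Ing2 carry a PHD finger that reads methylated histone tails. Histone deacetylation by such complexes is known as a means of keeping genes silent, and Hdac1 and Hdac2 also work in other complexes, among them NuRD and CoREST.

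The data came from 48 Ctrl, 48 KO and 27 MWT embryos in 16 groups, with 1 library per embryo or isolated inner cell mass (ICM), and 68 of the embryos belonged to an Oct4 and 55 to a Sox2 line. In the Oct4 line, Pou5f1 flox/flox mothers carrying Zp3-Cre, a Cre active in the growing oocyte, were mated with Pou5f1 +/mKO2 males, and in the Sox2 line Sox2 flox/flox mothers with Zp3-Cre were mated with Sox2 +/EGFP males. KO embryos therefore lacked the maternal and the zygotic gene, whereas Ctrl embryos also lacked the maternal gene and kept 1 intact paternal allele. MWT embryos came from mothers with an intact gene, and the strain on the labels is B6C3F1. Morulae were taken whole at E2.75. By the study's methods, ICMs of the early stage (E3.75) and of the late stage (E4.5) came from culture with 1 μM PD0325901, a MEK inhibitor, and immunosurgery had removed the trophectoderm, so a step between morula and ICM is also a step in culture and isolation. At every stage a line was represented by 8 Ctrl and 8 KO embryos. MWT embryos were available as 7 morulae, 5 early and 8 late ICMs in the Oct4 line, and as 7 early ICMs in the other line. For the Oct4 MWT ICMs the stage is that of the sample title, and other labels differ: the early ICMs carry a morula source name and no treatment entry, and the late ICMs an early ICM source name. No label names litters, so p-values measure the spread between single embryos. Late ICM replicate numbers carry a prefix, 1 or 2, that Ctrl and KO embryos share and the labels do not explain, and with this prefix as a block no gene of the set crossed the threshold in the late KO comparisons.

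Totals ran from 525755 to 1344035 unique molecular identifiers (UMIs, molecule tags that count PCR copies only once) per embryo, and levels are given as CPM, UMI counts scaled to a common library total, with TMM scaling over all embryos. At this depth 1 CPM is about 1 UMI. The libraries count 3′ ends, so levels of different genes are numbers of molecules, without division by length. The targeted genes matched the labels: the 8 KO embryos together held 3, 7 and 1 Pou5f1 UMIs in Oct4-KO morulae, early and late ICMs, against 163, 550 and 236 in the Ctrl embryos. Sox2-KO embryos held 14, 176 and 108 Sox2 UMIs at the same stages, which is 11.8%, 22.1% and 9.01% of the Ctrl level. In Oct4-KO embryos Sox2 RNA was at 98.1% of Ctrl in morulae (95% Poisson interval 79.0 to 122), at 121% in early ICMs (111 to 132) and at 30.9% in late ICMs (28.0 to 34.0). These intervals cover counting error only: over embryos, Sox2 in early ICMs overlapped widely, at 81.9 to 180 CPM in Ctrl and 96.2 to 295 CPM in KO, and did not pass the test (log2 fold change 0.31, interval −0.21 to 0.84, adjusted p = 0.446 by edgeR), while it fell in late ICMs (−1.62, adjusted p = 1.03e-06).

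The windows upstream of Sap30, of its paralog Sap30l and of Hdac2 are shown because these genes share a complex and differed in their response, as described further on. Each is the 250 bases before the annotated start in RefSeq (GRCm38.p6, the mm10 build), written 5′ to 3′ on the strand of the gene, with the matches to the searched motifs in capitals. Sap30 lies on the minus strand and its window is chr8:57487861-57488110, Sap30l is on the plus strand with chr11:57801387-57801636, and Hdac2 is on the plus strand with chr10:36974294-36974543.
Sap30: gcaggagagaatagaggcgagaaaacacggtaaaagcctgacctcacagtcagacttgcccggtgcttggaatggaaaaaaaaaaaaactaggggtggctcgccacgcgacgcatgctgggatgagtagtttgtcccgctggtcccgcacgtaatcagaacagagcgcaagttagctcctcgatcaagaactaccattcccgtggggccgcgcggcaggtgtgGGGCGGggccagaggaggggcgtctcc
Sap30l: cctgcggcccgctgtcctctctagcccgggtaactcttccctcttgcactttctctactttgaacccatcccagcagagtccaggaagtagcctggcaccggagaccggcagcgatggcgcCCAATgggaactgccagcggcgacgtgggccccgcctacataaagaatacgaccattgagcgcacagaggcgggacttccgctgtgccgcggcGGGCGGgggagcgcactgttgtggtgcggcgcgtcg
Hdac2: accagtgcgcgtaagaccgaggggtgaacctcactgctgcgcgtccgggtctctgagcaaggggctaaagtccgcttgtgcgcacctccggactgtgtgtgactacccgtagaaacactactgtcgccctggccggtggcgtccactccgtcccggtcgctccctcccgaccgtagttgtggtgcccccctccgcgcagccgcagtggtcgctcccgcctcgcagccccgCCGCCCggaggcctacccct

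The motifs searched on both strands were the octamer ATGCAAAT bound by POU factors, the SOX core CATTGT, the GC box GGGCGG and the CCAAT box CCAAT. They are present in 1.6%, 10.7%, 32.7% and 33.8% of all 32851 windows of this length. The Sap30 window held 1 GC box, 27 bases before the start, and none of the other motifs. The Sap30l window held 1 GC box at 36 bases and 1 CCAAT box at 129 bases, and the Hdac2 window held 1 GC box on the minus strand at 20 bases. GC content was 58% for Sap30, 65.2% for Sap30l and 68.8% for Hdac2, with 18, 24 and 27 CpG dinucleotides. Promoters were found for 8 of the 9 genes, all but Hdac1, and no window of the set held the octamer. The SOX core was found in an Ing1 window, on the minus strand at 150 bases, and in no other window of the set. The absence of these letters from 250 bases says nothing about binding elsewhere. The composite OCT-SOX motif was not searched, and the paper shows accessible chromatin sites around Sap30 that depend on Sox2.

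In the files' mm10 coordinates, Sap30 is at chr8:57482707-57487860, Hdac1 at chr4:129516104-129542713 and Hdac2 at chr10:36974544-37001889. Sap30, Hdac1, Hdac2, Ing1 and Sin3b overlap no other annotated gene. Sap18 overlaps Ska3 on the opposite strand over 78 bases, and its last 500 bases are identical to those of Sap18b, which was counted at 365 UMIs in all embryos against 5960 for Sap18. Its values are therefore uncertain. Ing2, Sin3a and Suds3 overlap opposite-strand genes with 20, 106 and 5 UMIs, against 5805, 2620 and 4382 of their own, and whether the counting used the strand is not given in the sources used here.

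Sap30 is a small subunit that binds the Sin3 scaffold directly. In Oct4 Ctrl morulae it ran from 10.3 to 40.9 CPM with a median of 22.4, and in Oct4-KO morulae from 5.15 to 16.0 CPM with a median of 8.09. All 8 KO morulae lay below the Ctrl median, and the groups overlapped. Summed over embryos, 67 UMIs in KO stood against 177 in Ctrl, or 36.9% of the Ctrl level, and the log2 fold change was −1.37. Across all 14053 genes, 1.47% passed an adjusted p of 0.05 in Oct4-KO morulae and 0.804% also reached 2-fold. These values chose the set and carry no test.

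In the ICMs, which the choice did not use, Sap30 was lower in KO embryos of both lines, and at no ICM stage did the KO and Ctrl embryos overlap. The study itself names Sap30 among genes that depend on Oct4 and Sox2, so these falls are not independent evidence of their direction. In Oct4 Ctrl early ICMs the lowest, median and highest Sap30 levels were 24.0, 47.9 and 75.5 CPM, and in Oct4-KO early ICMs 1.03, 2.21 and 3.84 CPM. The log2 fold change was −4.34 (SE 0.36, adjusted p = 7.67e-18 by edgeR's quasi-likelihood test with Benjamini-Hochberg adjustment, used throughout). The KO embryos held 16 UMIs in all against 354, which is 4.43% of Ctrl (interval 2.50 to 7.29).

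In Oct4 late ICMs, Sap30 ran from 36.6 to 96.4 CPM around a median of 66.2 in Ctrl, and from 0 to 6.74 CPM around 3.72 in KO. Of the 8 KO embryos, 2 had no Sap30 UMI. The log2 fold change was −4.26 (SE 0.35, adjusted p = 2.00e-18), with 4.74% of the Ctrl level left (interval 2.82 to 7.51). The fall did not differ detectably between the stages, the late effect minus the early effect being 0.08 with an interval of −0.86 to 1.02 (adjusted p = 0.972).

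Sap30 in morulae of the Sox2 line was 47.0, 65.0 and 110 CPM (lowest, median and highest) in Ctrl and 47.3, 61.2 and 80.5 CPM in KO. The groups overlapped along nearly their whole range, and the change of −0.18 did not pass the test (SE 0.23, interval −0.62 to 0.27, adjusted p = 1). In Sox2 early ICMs the Ctrl embryos lay at 33.0, 40.2 and 91.4 CPM and the KO embryos at 2.32, 5.75 and 17.9 CPM, a log2 fold change of −2.63 (SE 0.29, adjusted p = 3.62e-11). In late ICMs the values were 29.8, 40.2 and 65.6 CPM in Ctrl and 1.25, 3.70 and 8.55 CPM in KO, a change of −3.24 (SE 0.33, adjusted p = 1.13e-12). By summed UMIs, KO embryos kept 87.3% of the Ctrl level in morulae (interval 77.4 to 98.4), 15.6% in early ICMs (11.7 to 20.5) and 9.56% in late ICMs (6.20 to 14.2). The Sox2-KO effect was stronger in early ICMs than in morulae by −2.45 (SE 0.37, adjusted p = 7.74e-06), and Sap30 was the single gene of the 9 to pass this test, which 1.15% of all genes passed. Ctrl morulae of this line had less Sox2 RNA to lose, at a mean of 13.7 CPM against 106 CPM in Ctrl early ICMs. The part of this in the stage difference was not tested.

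Against Ctrl, the fall of Sap30 was larger in Oct4-KO than in Sox2-KO early ICMs, by −1.71 on the log2 scale (SE 0.51, adjusted p = 0.0203). These KO embryos kept 1.25% of Ctrl Pou5f1 and 22.1% of Ctrl Sox2, and the part of this in the difference was not tested. Against the MWT embryos, which the labels describe less well in the Oct4 line, the difference was −0.44 (SE 0.55) and did not pass (adjusted p = 0.658), so the call rests on the Ctrl reference. In late ICMs the corresponding difference was −1.02 (SE 0.56, interval −2.12 to 0.08), which did not pass the test (adjusted p = 0.286). Between early and late Sox2-KO ICMs the effect differed by −0.61 (interval −1.52 to 0.31, adjusted p = 0.697).

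**Figure D1:**
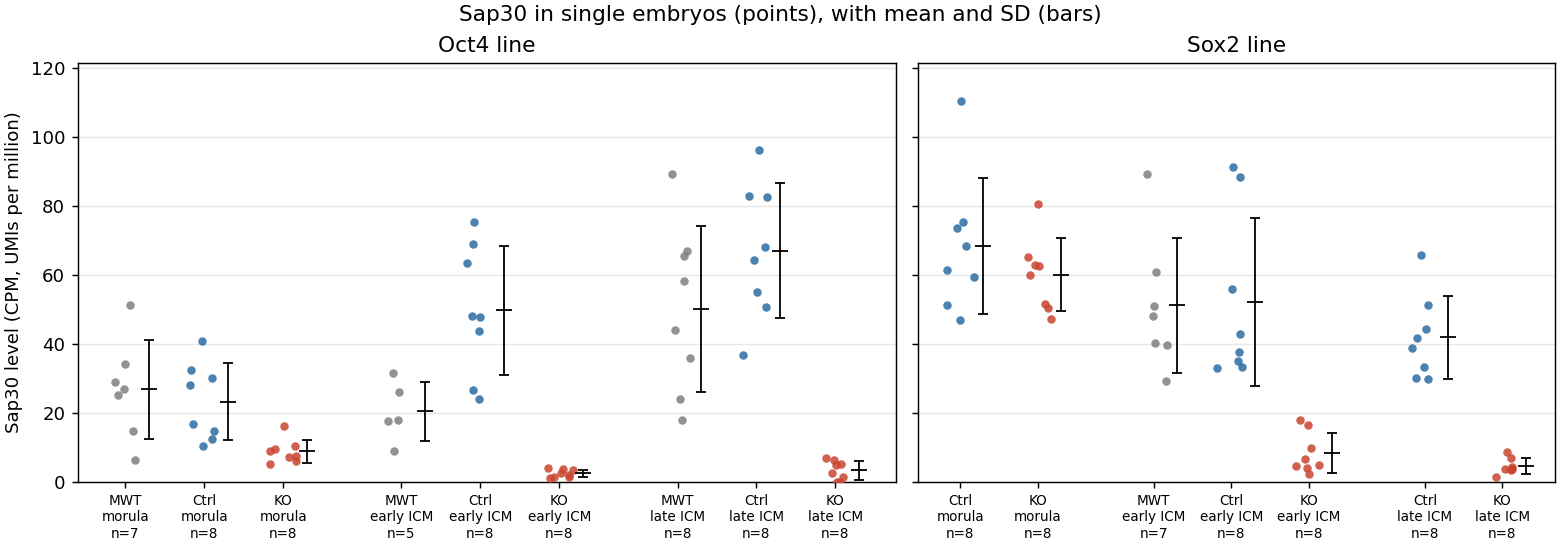
Sap30 level (CPM) in each embryo, by genotype and stage, in the Oct4 line (left) and the Sox2 line (right); bars give the mean and SD. KO embryos (red) stay at or below 17.9 CPM in all ICM groups and lie under every Ctrl embryo (blue) there, while Sox2-KO morulae cover 47.3 to 80.5 CPM, within the range of their Ctrl group, and the MWT embryos are in gray.

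Sap30 was lower in the 5 embryos titled as Oct4 MWT early ICMs than in Ctrl. Their markers were those of early ICMs and not of the morulae their source name gives: the epiblast sum over 8 markers was 1918 to 3681 CPM, against 2033 to 3020 in Ctrl early ICMs and 795 to 1425 in Oct4 MWT morulae, and Sox2 was at 131 to 280 CPM against 2.47 to 32.1 in those morulae. Since their labels give no PD0325901, maternal genotype and treatment cannot be told apart from the labels. These 5 had Sap30 at 17.8, 31.4, 26.0, 17.7 and 8.96 CPM, a change of −1.30 from Ctrl (SE 0.32, adjusted p = 0.0274, in the fit of all embryos, MWT included), and the groups overlapped. Sap30 was the only gene of the 9 to pass here, where 0.639% of 13923 genes passed. The call was lost when any of 6 of the 13 embryos was left out: Ctrl replicates 4, 8 and 9 and MWT replicates 1, 8 and 9, with changes of −1.25 to −1.10 and adjusted p up to 0.148. Oct4 MWT late ICMs ran up to 89.3 CPM with a median of 51.0 (change −0.42, adjusted p = 0.498), and Sox2 MWT early ICMs from 29.1 to 89.2 CPM with a median of 48.1 (change −0.01, interval −0.53 to 0.51). With MWT in place of Ctrl as the reference, the Sap30 change was −3.05 at the early and −3.85 at the late stage without Oct4, and −2.60 in early ICMs without Sox2, each past the threshold. Oct4 MWT morulae, not tested, ran from 6.18 to 51.3 CPM with a median of 27.0.

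Over the 5 tested KO comparisons, Sap30 and Hdac1 each fell in 4, Hdac2 in 2, and Sin3a and Suds3 in 1. Sap18 rose in 1, and Sin3b, Ing1 and Ing2 passed in none. A gene is said to have risen, fallen or changed at an adjusted p under 0.05, and to have been called where the change also reached 2-fold. In Oct4-KO early ICMs, 4 of the 9 genes changed, with 1 higher and 3 lower, and 1 (Sap30) was called, where 21% of all genes changed and 10.9% were called. In Oct4-KO late ICMs, 5 of 9 fell and 2 (Sap30 and Hdac1) were called, where 31.7% of all genes changed and 18.1% were called. In Sox2-KO early ICMs 2 fell and 1 was called (7.04% and 3.27% of all genes), and in Sox2-KO late ICMs 2 fell and 1 was called (13.8% and 6.95%). In Sox2-KO morulae none of the 9 passed by edgeR, where 1 of all genes did (0.00712%, the same share with the 2-fold criterion). There, 618 genes had an unadjusted p under 0.05, 1 of the 9 genes (Sin3a, 0.49, interval 0.09 to 0.90) among them, and DESeq2 also passed none of the 9. The median log2 fold change over the 9 genes was −0.22 and −0.46 with Oct4 lost in early and in late ICMs, and 0.04, −0.18 and −0.16 with Sox2 lost in morulae, early and late ICMs, while the median of all genes lay within 0.03 of 0 in every comparison.

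**Figure D2:**
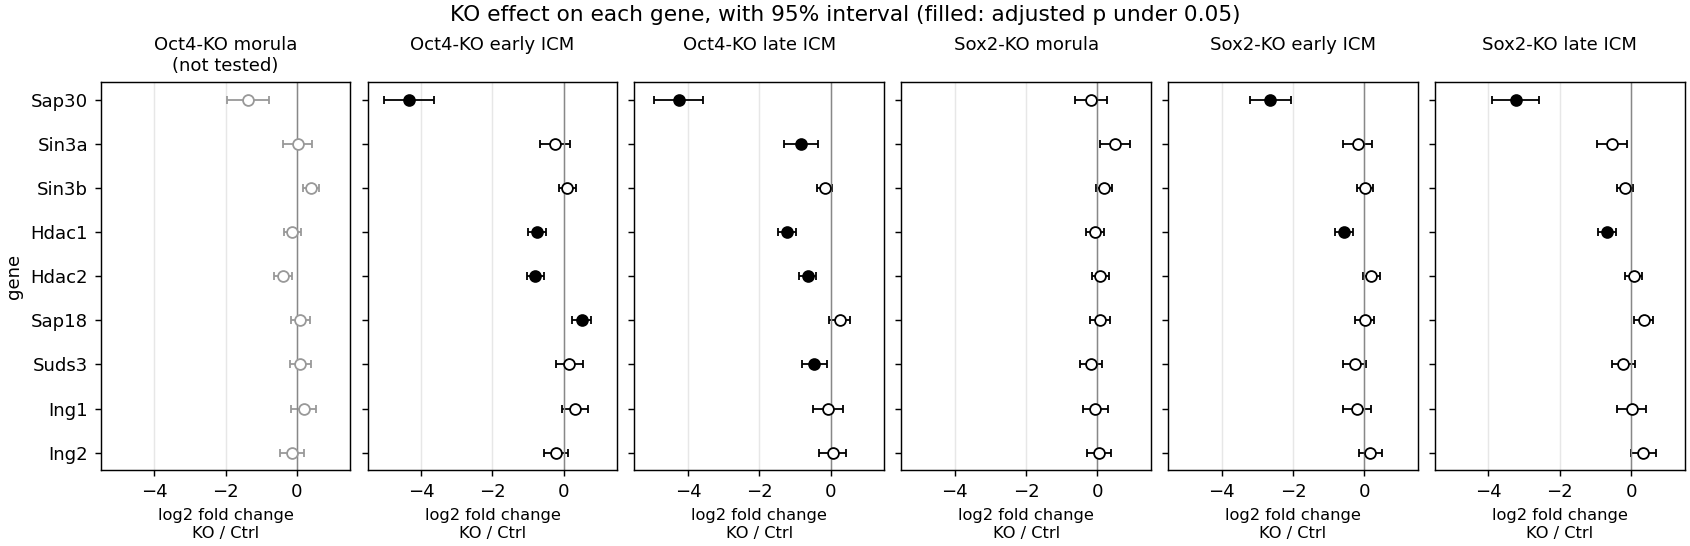
Log2 fold change of KO over Ctrl for the 9 genes (rows) in the 6 KO comparisons (panels), with 95% intervals. Filled points passed an adjusted p of 0.05. The Oct4-KO morula panel carries no test, and its intervals take no account of the choice of the set. Sap30 lies far to the left in the 4 ICM panels, from −4.34 to −2.63, and the other 8 genes stay between −1.22 and 0.50 in all panels.

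The KO and Ctrl ICMs also differed in markers of embryonic cell types, and in these bulk samples fewer cells of a type and less RNA per cell cannot be told apart. The summed level of 7 trophectoderm markers ran from 205 to 956 CPM in Oct4 Ctrl late ICMs and from 1197 to 3132 CPM in KO, and 6 of the 7 rose. In Oct4 early ICMs the sums were 237 to 1250 CPM in Ctrl and 494 to 1313 CPM in KO, where 2 rose and 2 fell. In the Sox2 line they were 111 to 486 against 487 to 2064 CPM in early ICMs and 217 to 2773 against 593 to 1788 CPM in late ICMs, where 4 rose and 1 fell at the early and 3 rose and 1 fell at the late stage. The sum of 8 epiblast markers ran from 2033 to 3020 CPM in Oct4 Ctrl early ICMs and from 1316 to 1770 CPM in KO, and in late ICMs from 2233 to 3551 against 489 to 1133 CPM, with 7 and 8 of the 8 lower. In the Sox2 line the epiblast sums were 1620 to 3245 against 1418 to 1938 CPM in early ICMs and 2423 to 3587 against 1353 to 2458 CPM in late ICMs, with 4 and 6 lower. No trophectoderm or epiblast marker was at 0 in any ICM group. In Oct4 morulae the epiblast sum ran from 840 to 1084 CPM in Ctrl and from 519 to 950 CPM in KO. The trophectoderm sums there were 274 to 921 CPM in Ctrl and 396 to 1025 CPM in KO. Of 6 primitive endoderm markers 4 were tested: 2 fell in Oct4-KO early ICMs, 3 fell and 1 rose in Oct4-KO late ICMs, with a median change of −3.03, while without Sox2 none passed by edgeR in early ICMs (0 at an unadjusted p under 0.05) and 1 rose in late ICMs. Their sum over all 6 was 126 to 680 CPM in Oct4 Ctrl and 238 to 564 CPM in KO late ICMs, and over the ICM groups its medians ran from 77.0 to 1009 CPM. The part of these markers in the results on the 9 genes was not tested.

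Hdac1, a catalytic subunit, was the most abundant of the 9 genes in every Ctrl group by mean CPM. In Oct4 early ICMs it had a lowest, median and highest level of 246, 334 and 459 CPM in Ctrl and of 141, 185 and 322 CPM in KO. It fell by 0.74 on the log2 scale (SE 0.13, adjusted p = 3.26e-06), with overlap between the groups. In Oct4 late ICMs it was at 262, 345 and 424 CPM in Ctrl and at 113, 154 and 175 CPM in KO. The late groups did not overlap, and Hdac1 fell by 1.22 (SE 0.13, adjusted p = 4.49e-13).

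Hdac1 in early ICMs of the Sox2 line was at 248, 268 and 393 CPM in Ctrl and at 154, 188 and 299 CPM in KO (change −0.56, SE 0.13, adjusted p = 0.00154). In late ICMs it was at 254, 349 and 456 CPM in Ctrl and at 184, 213 and 285 CPM in KO (change −0.68, SE 0.13, adjusted p = 3.19e-05). Most KO embryos were below most Ctrl embryos, with some overlap at both stages. In Sox2-KO morulae the estimate was −0.07 (interval −0.31 to 0.18). The Oct4-KO effect exceeded the Sox2-KO effect in late ICMs by −0.55 (SE 0.18, adjusted p = 0.0411) and not detectably in early ICMs (−0.18, interval −0.53 to 0.17, adjusted p = 0.607). The late difference missed the threshold when the MWT embryos entered the fit (−0.56, adjusted p = 0.0556).

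Hdac2, the paralogous deacetylase, fell in Oct4-KO ICMs and passed no test in Sox2-KO embryos. In Oct4 early ICMs it was at 102, 172 and 210 CPM in Ctrl and at 72.8, 102 and 117 CPM in KO, a change of −0.80 (SE 0.12, adjusted p = 4.15e-07). In Oct4 late ICMs it was at 139, 176 and 198 CPM in Ctrl and at 87.5, 99.5 and 142 CPM in KO, a change of −0.65 (SE 0.13, adjusted p = 2.25e-05). In early ICMs the lowest Ctrl embryo lay within the KO range, and in late ICMs the highest KO embryo passed the lowest Ctrl embryo.

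In Sox2 early ICMs, Hdac2 ran from 93.2 to 165 CPM in Ctrl and from 119 to 190.4 CPM in KO (change 0.20, interval −0.04 to 0.44, adjusted p = 0.378), and in late ICMs from 114 to 193 CPM in Ctrl, with a median of 157, and around a median of 153 CPM in KO, whose lowest embryo was at 110 CPM (change 0.08, interval −0.16 to 0.32). Against Ctrl, the difference between the lines passed the test at both stages: −0.998 in early ICMs (SE 0.18, adjusted p = 2.59e-05) and −0.72 in late ICMs (SE 0.18, adjusted p = 0.00346). With MWT embryos as the reference the early difference was −0.50 (SE 0.22) and did not pass (adjusted p = 0.118), and the Sox2 line has no MWT late ICMs for the same check. Against Ctrl, Sap30 and Hdac2 in early ICMs were the 2 genes of the 9 that differed between the lines, where 8.12% of all genes did, and in late ICMs Hdac1 and Hdac2 were, where 8.67% did. None of the 9 differed between late and early ICMs in the Oct4-KO effect (4.46% of all genes) or the Sox2-KO effect (0.0427%) by edgeR, where 2 and 0 had an unadjusted p under 0.05, nor by DESeq2. In Oct4 morulae, which carry no test, Hdac2 ran from 74.7 to 107 CPM in Ctrl and from 54.0 to 76.2 CPM in KO.

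The share of Hdac1 in the summed UMIs of Hdac1 and Hdac2 was 65.8% ± 8.18 (SD, n = 8) in Oct4 Ctrl early ICMs and 66.2% ± 7.70 in KO, while in late ICMs it was 67.1% ± 3.36 in Ctrl and 58.0% ± 7.14 in KO. For the Sox2 line the share went from 70.4% ± 3.26 in Ctrl to 58.1% ± 6.80 in KO early ICMs, and from 70.3% ± 3.05 to 58.4% ± 5.96 in late ICMs. Both transcripts were thus lower to a like degree in Oct4-KO early ICMs, and the share of Hdac1 was lower in KO in the other 3 ICM comparisons. These shares were not tested.

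**Figure D3:**
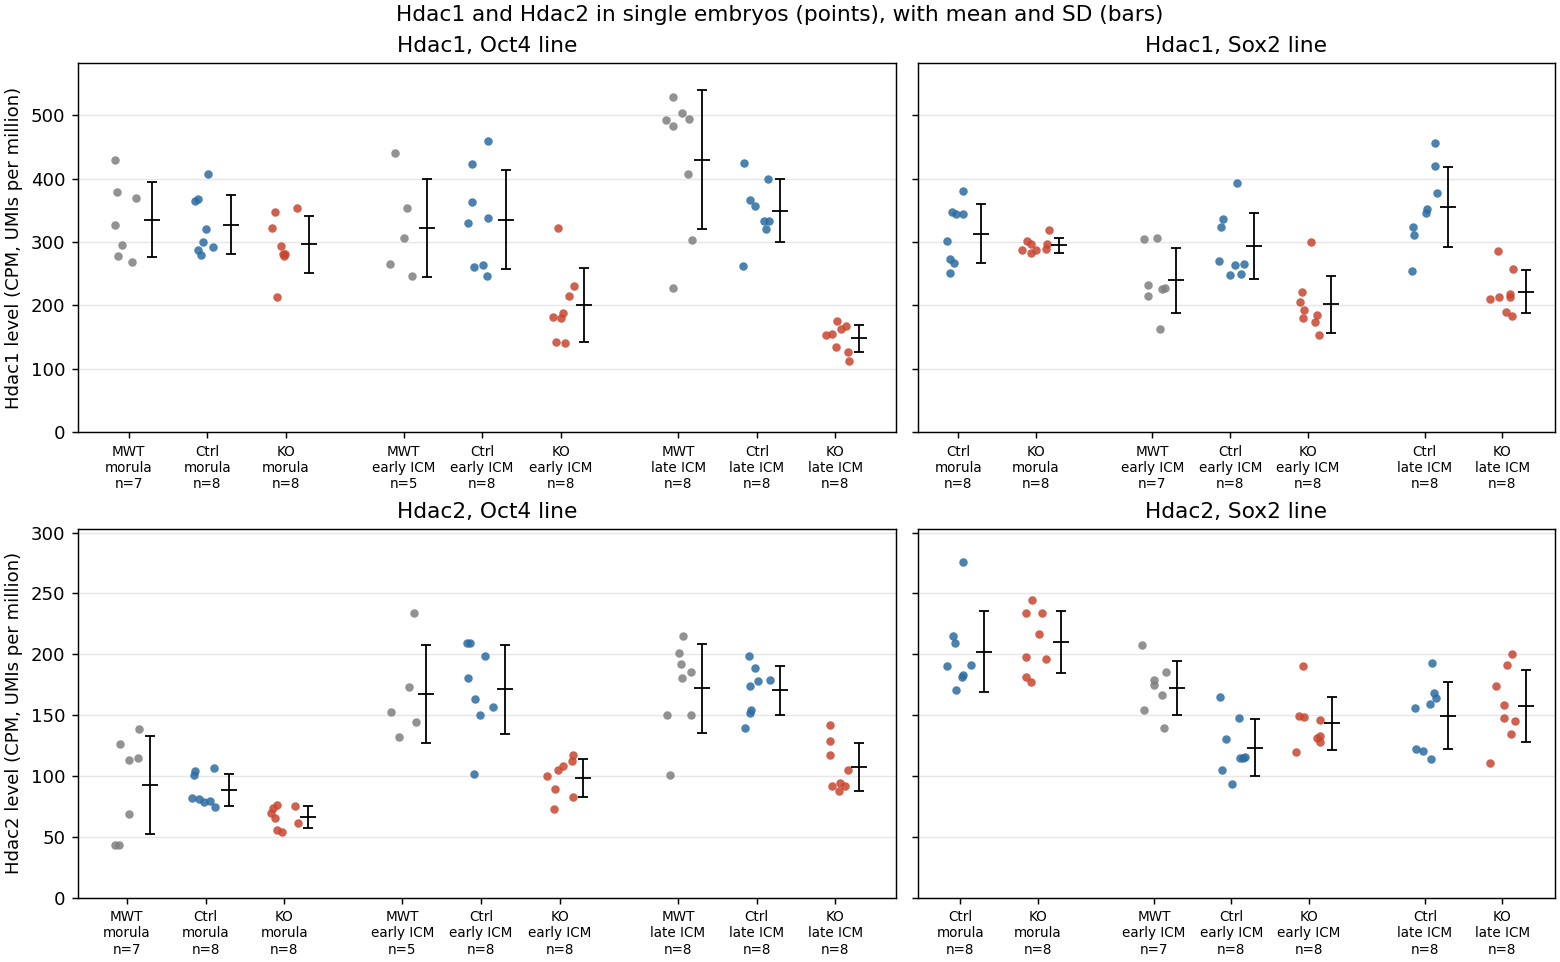
Hdac1 (top) and Hdac2 (bottom) level in CPM in each embryo of the Oct4 line (left) and the Sox2 line (right), by genotype and stage, with mean and SD as bars. Hdac1 is lower in the KO ICMs (red) of both lines, to 148 CPM on average in Oct4-KO late ICMs, whereas Hdac2 is lower in the Oct4-KO ICMs, and in Sox2 ICMs its KO and Ctrl (blue) ranges overlap in large part.

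Sin3a, a scaffold, was a low-count gene, at a median of 22.1 CPM in Oct4 Ctrl late ICMs (12.6 to 37.5) and 12.4 CPM in KO (9.21 to 18.5). It fell there by 0.84 (SE 0.24, adjusted p = 0.00432), and did not pass when counts were thinned to a common depth (−0.68, adjusted p = 0.0590). In Sox2-KO late ICMs it was at 20.99 CPM against 31.5 CPM in Ctrl by median, with a change of −0.54 (interval −0.96 to −0.13) that missed the threshold (adjusted p = 0.0757) and passed it without Ctrl replicate 1-4, KO replicate 1-6 or KO replicate 2-6 (adjusted p = 0.0440, 0.0372 and 0.0462). Sin3b, the other scaffold, passed in no KO comparison, and its intervals were narrow: without Oct4, −0.12 to 0.33 in early and −0.39 to 0.05 in late ICMs, and without Sox2, −0.21 to 0.24 in early and −0.38 to 0.06 in late ICMs. Sin3b made up most of the scaffold UMIs, with a mean share of the sum of Sin3a and Sin3b from 81.7% to 95.7% over the 16 groups.

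Of the smaller subunits, Sap18, which is also found in other RNA-associated complexes, rose in Oct4-KO early ICMs, from 40.8, 48.6 and 68.9 CPM in Ctrl to 50.9, 71.3 and 88.4 CPM in KO. The change was 0.50 (SE 0.14, adjusted p = 0.00387) and did not pass after thinning to a common depth (0.44, adjusted p = 0.0961). In Sox2-KO late ICMs its estimate of 0.35 missed the threshold (adjusted p = 0.0693) and passed it without KO replicate 1-5 (0.41, adjusted p = 0.0317). Suds3, a subunit that holds the deacetylase module together, fell in Oct4-KO late ICMs by 0.46 (SE 0.18, adjusted p = 0.0394), from 19.8, 40.7 and 47.7 CPM in Ctrl to 19.1, 27.9 and 33.7 CPM in KO. It no longer passed without any of 6 of the 16 embryos, Ctrl replicates 1-3, 1-9, 2-4 and 2-9 and KO replicates 1-5 and 2-5, with adjusted p up to 0.0703, as well as with no filter (0.109), after thinning (0.0750) and in a fit of those groups alone (0.0941).

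The histone readers Ing1 and Ing2 passed in no KO comparison. Their estimates lay between −0.22 and 0.34, and the widest of the intervals reached −0.60 (Ing1, Sox2-KO early ICMs) and 0.69 (Ing1 in Oct4-KO early ICMs and Ing2 in Sox2-KO late ICMs). A change of 2-fold in either direction was outside the interval of both genes in each tested KO comparison.

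Sap30l, which encodes a close relative of Sap30 and is not in the set, gave smaller estimates than Sap30. Its level had a median of 94.0 CPM in Oct4 Ctrl and 86.1 CPM in KO early ICMs (change −0.11, interval −0.40 to 0.18), and it fell by 0.44 in Oct4-KO late ICMs (SE 0.15, adjusted p = 0.0218). In Sox2-KO early and late ICMs its changes were −0.24 (interval −0.52 to 0.04) and 0.09 (−0.19 to 0.37). The share of Sap30 in the sum of Sap30 and Sap30l UMIs went from 33.2% ± 9.02 (SD, n = 8) in Oct4 Ctrl to 2.51% ± 1.04 in KO early ICMs, and from 39.1% ± 9.51 to 4.70% ± 4.12 in late ICMs. In the Sox2 line it went from 24.0% ± 8.62 to 5.65% ± 4.13 in early ICMs and from 23.7% ± 5.90 to 3.24% ± 2.29 in late ICMs. In all 4 ICM comparisons the highest share in a KO embryo was below the lowest in a Ctrl embryo. In Sox2 morulae the shares were 27.7% ± 6.26 in Ctrl and 25.9% ± 3.99 in KO.

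Between stages of the Ctrl embryos, the subunits changed in different directions, and these comparisons share their Ctrl embryos with the KO comparisons. From morula to early ICM, all 8 epiblast markers rose in the Oct4 line and 6 in the Sox2 line. Of 7 trophectoderm markers, 1 rose in the Oct4 line and 5 fell in the Sox2 line. The part of these markers in the stage changes was not tested. Sap30 is described without a test for the step from morula to early ICM in the Oct4 line, because the Ctrl morulae took part in its choice: its median went from 22.4 to 47.9 CPM. From early to late ICM its change of 0.44 was not past the threshold (interval −0.03 to 0.90, adjusted p = 0.152). In the Sox2 line, the Sap30 change was −0.42 from morula to early ICM (interval −0.87 to 0.03, adjusted p = 0.117) and −0.32 from early to late ICM (interval −0.79 to 0.15, adjusted p = 0.470).

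Of the other 8 genes, 5 changed from morula to early ICM in Oct4 Ctrl embryos, with 3 higher and 2 lower, and 1 was called (48% and 29% of all genes). The called gene was Suds3, which fell by 1.91 (SE 0.18, adjusted p = 1.78e-16) from 48.7, 61.9 and 74.3 CPM to 9.84, 13.8 and 24.7 CPM, without overlap. Hdac2 rose by 0.93 (SE 0.13, adjusted p = 6.39e-10), Ing2 by 0.54 (adjusted p = 0.00651) and Sin3b by 0.31 (adjusted p = 0.0207), and Ing1 fell by 0.66 (adjusted p = 0.00178). In the Sox2 Ctrl embryos 5 of 9 changed over the same step and 1 was called (51.7% and 31.9% of all genes). There Sin3b rose by 0.97 (SE 0.11, adjusted p = 5.95e-12) from 96.03, 118 and 143 CPM to 171, 237 and 296 CPM, without overlap, Sap18 rose by 0.71 (adjusted p = 8.49e-06), and Sin3a by 0.62 (adjusted p = 0.00913, and 0.0676 after thinning). Ing1, the called gene, fell by 1.19 (SE 0.19, adjusted p = 5.70e-08), and Hdac2 fell by 0.73 (adjusted p = 3.03e-07) from 170.3, 191 and 276 CPM to 93.2, 115 and 165 CPM, without overlap.

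Hdac2 thus rose in one line and fell in the other over this step, and the lines differed already as morulae. Oct4 Ctrl morulae had Hdac2 at 74.7 to 107 CPM and Sox2 Ctrl morulae at 170.3 to 276 CPM. Sap30 was at 10.3 to 40.9 against 47.0 to 110 CPM, and its Oct4 Ctrl values took part in the choice of the set. The rest of the set differed by a smaller factor, from Ing1 (mean 74.8 against 77.1 CPM) to Sin3a (25.4 against 17.9 CPM). Pou5f1 was at 13.5 to 26.8 CPM in the Oct4 Ctrl and at 67.3 to 99.5 CPM in the Sox2 Ctrl morulae. The difference between the lines was not tested, and line and collection cannot be told apart.

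From early to late ICM, 4 of 9 genes changed in Oct4 Ctrl embryos, with 2 higher and 2 lower, and 2 were called (32.4% and 15.6% of all genes). Sin3b rose by 1.12 (SE 0.11, adjusted p = 1.28e-13) from 135, 158 and 189 CPM to 232, 332 and 469 CPM, without overlap, and Suds3 rose by 1.22 (SE 0.19, adjusted p = 8.29e-08). Ing2 fell by 0.79 (adjusted p = 0.000286) and Ing1 by 0.57 (adjusted p = 0.0221). In Sox2 Ctrl embryos, 1 of 9 changed and none was called (7.21% and 2.9% of all genes): Ing2 fell by 0.58 (SE 0.17, adjusted p = 0.0249, and 0.0872 after thinning). Hdac1 passed at no step in either line, with estimates between −0.11 and 0.26.

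**Figure D4:**
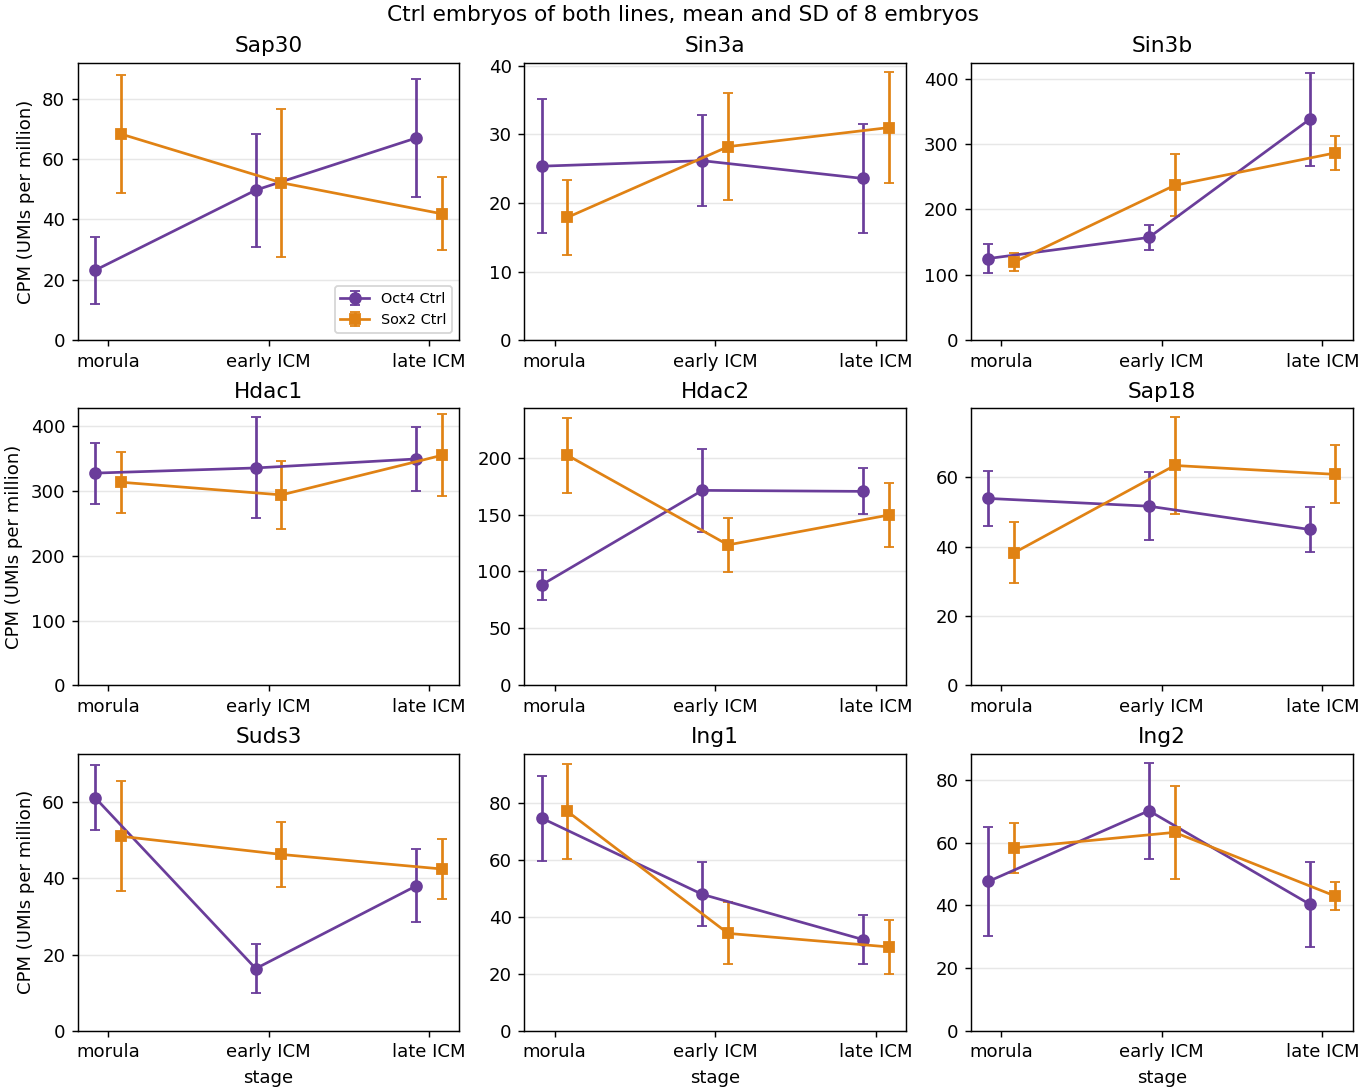
Mean level in CPM and SD of 8 Ctrl embryos at each stage, with the Oct4 line in purple and the Sox2 line in orange, one panel per gene and a separate scale from 0 in each. Mean Sin3b is higher and mean Ing1 lower at each later stage in both lines, Suds3 has its minimum of 16.3 CPM in Oct4 Ctrl early ICMs, and Sap30 and Hdac2 start from different levels in the morulae of the lines.

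Among embryos with intact maternal Sox2, 3 of the 9 genes differed from Ctrl in early ICMs (6.33% of all genes). Maternal genotype and collection cannot be told apart in this comparison. Suds3 was lower by −0.84 (SE 0.18, adjusted p = 0.00109), Sin3a lower by −0.79 (SE 0.23, adjusted p = 0.0175) and Hdac2 higher by 0.49 (SE 0.15, adjusted p = 0.0286). Without MWT replicate 14 only Suds3 passed, with Sin3a at −0.69 (adjusted p = 0.0666) and Hdac2 at 0.44 (adjusted p = 0.0844), and Hdac2 also did not pass without MWT replicate 15 and without Ctrl replicate 11 or 15. In the MWT embryos the primitive endoderm sum ran from 839 to 1221 CPM against 57.4 to 670 CPM in Ctrl, with 1 of the 4 tested markers higher. The trophectoderm sum ran from 290 to 1065 against 111 to 486 CPM, with 2 of 7 markers higher, and the epiblast sum from 1274 to 2239 against 1620 to 3245 CPM, with 2 of 8 lower. The part of these markers in the results was not tested. In Oct4 MWT late ICMs none of the 9 differed from Ctrl by edgeR (1.58% of all genes), and 2 had an unadjusted p under 0.05: Hdac1 (0.30, interval 0.04 to 0.57) and Ing1 (0.53, interval 0.12 to 0.94).

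Of the 12 further Sin3 subunits listed, 11 were in the table and tested, Sap25 being not analysed here. In Oct4-KO early ICMs 4 of the 11 fell and none rose, and in late ICMs 5 fell and 2 rose, where 21% and 31.7% of all genes changed. In Sox2-KO early ICMs 1 fell and 1 rose, and in late ICMs 3 fell and 1 rose, against 7.04% and 13.8% of all genes. The same shares of all genes apply to the other lists. Brms1l, a relative of Brms1, rose by 1.73 in Oct4-KO late ICMs (adjusted p = 1.10e-07) and, with Sox2 lost, by 1.01 in the early and 1.06 in the late stage. Sinhcaf, a Sin3-HDAC subunit known from pluripotent cells, fell by 1.31 in Oct4-KO late ICMs (adjusted p = 1.03e-07). Rbbp7, a histone-binding subunit shared with other complexes, rose by 1.08 there. The median over the 11 genes was −0.18 in early and −0.39 in late ICMs of the Oct4-KO embryos, and 0.07 and −0.17 in those of the Sox2-KO embryos.

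Of 21 genes of other complexes that use Hdac1 and Hdac2, 2 rose and 2 fell in Oct4-KO early ICMs, 5 rose and 3 fell in late ICMs, none passed in Sox2-KO early ICMs by edgeR (5 at an unadjusted p under 0.05), and 1 rose and 2 fell in Sox2-KO late ICMs. In the Oct4 line these counts lie near the 21% and 31.7% of all genes. Mta3, a NuRD subunit, was the only one called, with a rise of 1.50 in Oct4-KO late ICMs (adjusted p = 8.80e-13). Of 16 other deacetylases 13 were tested: 2 fell in Oct4-KO early ICMs, 2 rose and 3 fell in late ICMs, none passed in Sox2-KO early ICMs (4 at an unadjusted p under 0.05), and 1 fell in Sox2-KO late ICMs, again near the shares of all genes in the Oct4 line. In Oct4-KO late ICMs Sirt5, a mitochondrial enzyme, rose by 1.66 (adjusted p = 0.000789) and Hdac6, which acts on tubulin, fell by 1.14. Hdac7 was at 0 in all 8 Oct4-KO late ICMs and at a mean of 1.36 CPM in Ctrl.

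Of 10 factors and partners that bring Sin3 to chromatin or work with it, 5 fell in Oct4-KO early ICMs, 3 fell and 1 rose in late ICMs, 1 fell in Sox2-KO early ICMs, and 3 fell and 1 rose in Sox2-KO late ICMs, where 21%, 31.7%, 7.04% and 13.8% of all genes changed. Tet1, a DNA demethylation enzyme found with Sin3a, had log2 fold changes of −1.78 in Oct4-KO early ICMs and −2.70 in late ICMs (adjusted p = 6.27e-23), from a mean of 285 to 43.6 CPM in the late stage. Rest, a repressor of neuronal genes that recruits Sin3a, fell by 1.52 in Oct4-KO late ICMs. Of the Max dimerization genes only Mxd3 and Mxd4 were called, and no gene of the list that rose reached 2-fold. Mxd3 fell by 1.41 at the early and 1.18 at the late stage without Oct4, and by 1.34 at the late stage without Sox2. Mxd4 fell by 2.47 in Oct4-KO early ICMs, where it is a low-count gene. In Sox2-KO morulae no gene of these 4 lists passed by edgeR, and 3 had an unadjusted p under 0.05.

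Across the 16 group means of log2 CPM, the genes most like Sap30 among 7541 genes were Parp1 (Pearson r = 0.916), Actl6a (0.901), Pdpk1 (0.900), Rpe (0.895) and Platr10 (0.890). Parp1 encodes an ADP-ribosylating enzyme of DNA repair and chromatin, and Actl6a a subunit of chromatin remodelers. Parp1 covered a narrower range than Sap30, from 182 to 372 CPM by group mean. Among the other genes of the set, r with Sap30 was 0.761 for Hdac1, 0.560 for Hdac2 and −0.678 for Sap18, and the other 5 genes lay between −0.08 and 0.32. The 16 means share lines, stages and genotypes and are not independent, so these correlations are descriptions.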

How the data were processed

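RNA was measured in single embryos or ICMs by sequencing of 3′ ends with UMIs. According to its methods section, reads were processed by the authors with UMI-tools (tag extraction), Cutadapt (removal of poly-A), TopHat2 (alignment to mm10 with GENCODE vM23), featureCounts (assignment to genes) and TRUmiCount (correction of UMI numbers). The first deposited table holds unnormalized UMI counts for 29022 genes. The second holds rlog values on a log2 scale, made by the authors with DESeq2 for 15747 genes, and was used as an alternative only. Intervals of UMI ratios are exact Poisson at 95% and cover counting error only.

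A gene was tested if 0.5 or more of the embryos of some stage held a UMI of it. The model was edgeR's quasi-likelihood fit (version 4.0.16, R 4.3.3) with 1 mean per group, TMM scaling and no covariate: 14053 genes over 96 Ctrl and KO embryos, and 13923 over all embryos for MWT comparisons and for the levels printed. SE is the log2 fold change divided by the square root of F. Adjusted p-values run over all genes tested (Benjamini-Hochberg). Over 416 pairs of embryos within groups, the lowest chi-square per gene was 2.63, so no library was entered again.

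The members, lists and tests were chosen with earlier results of these data known. Besides the members, the text names Pou5f1, Sox2, Sap30l, list genes called in a KO comparison, and the 5 genes most like Sap30 among those with at least 20 CPM in a group mean. Gene overlaps come from GENCODE vM21, and near-identical 3′ ends from blastn 2.17.0+ over the last 500 bases (at least 95% identity over at least 75 bases). Alternatives were other scalings, no filter, thinning, DESeq2 1.42.0, rlog with limma 3.58.1, smaller fits, MWT in the fit or as reference, replicate blocks and leaving out each embryo.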

Additional observations from a re-analysis of the deposited data

Results flagged for a closer look

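Of the 144 sets of values of a gene of the set in a group, 6 held an embryo far from the rest by Dixon's criterion, where chance gives about 7.2. Sin3a was at 47.6 CPM in Oct4 Ctrl morula 15 (next embryo 27.5 CPM) and Sin3b at 228 CPM in Oct4-KO morula 7 (next 179 CPM). Sap30 was at 110 CPM in Sox2 Ctrl morula 1 (next 75.2 CPM) and Hdac2 at 276 CPM in Sox2 Ctrl morula 14 (next 215 CPM). In Sox2-KO early ICMs, Hdac1 was at 299 CPM in replicate 8 (next 221 CPM) and Hdac2 at 190.4 CPM in replicate 1 (next 149 CPM).

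The effect of a KO differed between lines or stages, by a test of the difference itself in edgeR, in 5 cases. Against Ctrl, Oct4 loss lowered Sap30 more than Sox2 loss in early ICMs (−1.71, SE 0.51, adjusted p = 0.0203), and likewise Hdac2 in early ICMs (−0.998, SE 0.18, adjusted p = 2.59e-05) and in late ICMs (−0.72, SE 0.18, adjusted p = 0.00346) and Hdac1 in late ICMs (−0.55, SE 0.18, adjusted p = 0.0411). Sox2 loss lowered Sap30 more in early ICMs than in morulae (−2.45, SE 0.37, adjusted p = 7.74e-06). With MWT embryos as the reference, an alternative chosen after seeing the data, the early differences were −0.44 for Sap30 (adjusted p = 0.658 by edgeR) and −0.50 for Hdac2 (adjusted p = 0.118), and neither passed.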

How the results depend on the processing

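Sap30 kept its direction and its call in the 4 ICM comparisons under every alternative run. On the rlog scale, which shrinks low counts, its changes were smaller, at −2.67 and −2.85 in early and late ICMs without Oct4. Without Sox2, the smallest changes over the alternatives were −2.04 in early and −2.17 in late ICMs. The cause of the changes below was not tested. After thinning to a common depth, 3 members changed in Oct4-KO late ICMs and 0 from early to late ICM in Sox2 Ctrl embryos. With library totals alone, 2 members were called from morula to early ICM in Oct4 Ctrl embryos. In Sox2 Ctrl embryos 2 were called over that step with DESeq2's size factors, totals, thinning or DESeq2. With MWT embryos in the fit, 1 member differed between the KO effects in late ICMs. With MWT in place of Ctrl, chosen after seeing the data, 0 members differed between the KO effects in early ICMs by edgeR, with 3 at an unadjusted p under 0.05. DESeq2 found 2 members (Sap30 and Ing2) different between Oct4 MWT and Ctrl early ICMs.

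Signs turned only for estimates that had not passed. Thinning gave 0.14 for Sin3a in Oct4-KO early ICMs (from −0.24), 0.084 for Ing2 (from −0.14) and −0.060 for Sin3a (from 0.017) in the untested Oct4-KO morulae, −0.080 for Sap18 in Sox2-KO morulae, −0.065 for Sin3b in Sox2-KO early ICMs and −0.082 for Hdac2 in Sox2-KO late ICMs. Totals alone gave −0.046 for Ing2 in Oct4-KO late ICMs, −0.059 for Sin3b and −0.061 for Sap18 in Sox2-KO early ICMs, and −0.026 for Hdac2 and −0.094 for Ing1 in Sox2-KO late ICMs. Totals alone also brought Sin3a in Sox2-KO late ICMs past the threshold (−0.64, adjusted p = 0.0313 by edgeR).

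The labels do not say that a replicate number marks a shared litter or day, and not every shared number correlated, so embryos were not treated as paired: of 14 shared numbers, 8 had a correlation over 0.1 (range −0.107 to 0.266), and 7 embryos correlated best with their own number, so shared structure may remain. The replicate block moved no member across the threshold and turned Ing1 in Sox2-KO late ICMs to −0.030. No paired analysis was possible for Sox2-KO morulae because the groups share no numbers.

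Leaving out 1 embryo at a time gave 0 to 1 members called and 0 to 1 changed between Oct4 MWT and Ctrl early ICMs, and 1 to 3 changed in Sox2 MWT early ICMs. Estimates that crossed 0 were Sin3a (−0.070 to 0.19) in Oct4-KO morulae, Ing1 (−0.18 to 0.019) and Ing2 (−0.020 to 0.16) in Oct4-KO late ICMs, Sap18 (−0.035 to 0.11) and Ing2 (−0.023 to 0.094) in Sox2-KO morulae, Sin3b (−0.030 to 0.083) and Sap18 (−0.040 to 0.092) in Sox2-KO early ICMs, and Ing1 (−0.094 to 0.10) in Sox2-KO late ICMs.

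At about 1 UMI per CPM, and less in Oct4 late ICMs, a KO level of Sap30 in ICMs rests on few UMIs per embryo. The depth therefore limits how precisely its residual level is known. Counts of about 25 CPM limit Sin3a likewise.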
